A study of Zea mays with 9 samples.

Results

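TPS8 (GRMZM2G038153) and GRMZM2G329040 are maize genes that lie in a stretch of chromosome 1 where most genes had more transcript in P1-ww714 seedlings than in B73 seedlings, yet both had less. They are 2 of the 39656 gene identifiers in the count table and 2 of the 131 tested genes of that stretch. They were chosen by their counts in P1-ww714 against B73, so their values in that comparison are given as a description with its error. GRMZM2G329040 is 1 of 3 identifiers of 1 RefSeq gene, and the log2 folds of the others had the opposite sign, as described below. Whole seedlings 14 days old were sequenced in 3 genotypes with 3 libraries each, namely P1-ww714, the heterozygote P1-ww714/B73 and the inbred line B73. The allele P1-ww714 belongs to p1, a chromosome 1 gene for a MYB protein that switches on red phlobaphene pigments. The label does not state that P1-ww714 is homozygous, although it is read so here, and the sources used here do not give the inbred background that carries the allele. It is known of the study, though not from its labels, that P1-ww714 carries a duplicated chromosome 1 segment, so that P1-ww714, the heterozygote and B73 have 4, 3 and 2 doses of it.

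TPS8 is read here as a terpene synthase gene from background knowledge, since the reference table gives its symbol only. Terpene synthases turn prenyl diphosphates into the carbon skeletons of terpenes, which maize uses as volatile signals, as antimicrobial defences and, through ent-kaurene, as precursors of gibberellin hormones. The symbol TPS is also used for trehalose phosphate synthases, so several maize genes share a TPS number. GRMZM2G329040 has no symbol in the reference table and no role is given to it here. When a chromosome segment is duplicated, transcript levels of its genes commonly follow the number of copies, and a gene that has less transcript with more copies departs from that pattern.

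Library totals ran from 9486044 to 16189684 counts. The leaf gene pdk1, for the C4 cycle enzyme pyruvate phosphate dikinase, took 1.77% to 2.26% of the counts of each library. P1-ww714/B73 replicate 1 stood apart, with a mean correlation of 0.965 with the other libraries against 0.974 to 0.982 for the rest. Since no label says that the samples came from different plants, the p-values reflect only the sample-to-sample spread, which may be technical. Levels are in CPM, the usual count of a gene relative to the library's total, scaled by trimmed means of M-values (TMM), and they are not per length, so levels are not compared between genes.

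TPS8 was counted 182, 43 and 81 times in the libraries of P1-ww714, 255, 379 and 194 times in those of the heterozygote and 535, 494 and 343 times in those of B73. As levels these were 11.6, 3.67 and 5.32 CPM in P1-ww714, 23.0, 24.1 and 20.1 CPM in the heterozygote and 41.7, 41.5 and 34.6 CPM in B73. The 3 genotypes did not overlap: every P1-ww714 library lay below every heterozygote library, and every heterozygote library lay below every B73 library. Of all tested genes, 3.05% had the first of these orders and 3.37% the other. Within P1-ww714, replicate 1 was the highest. The mean level of TPS8 was 6.87 ± 4.19 CPM in P1-ww714, 22.4 ± 2.06 CPM in the heterozygote and 39.3 ± 4.04 CPM in B73 (SD, n = 3 each). P1-ww714 therefore held 17.5% and the heterozygote 57.1% of the B73 mean. In bulk seedlings, fewer cells that express a gene and less RNA per cell cannot be told apart.

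GRMZM2G329040 had 1372, 1045 and 1459 counts in P1-ww714, 1413, 2164 and 1295 in the heterozygote and 1606, 2069 and 1692 in B73. Its levels were 87.5, 89.3 and 95.8 CPM in P1-ww714, 127, 138 and 134 CPM in the heterozygote and 125, 174 and 171 CPM in B73. Every P1-ww714 library lay below every library of the other genotypes, while the heterozygote and B73 overlapped because B73 replicate 1 was the lowest of these 6 libraries. Of all tested genes, 3.05% had every P1-ww714 library below every heterozygote library. The order of P1-ww714 and B73 belongs to the comparison that chose the gene. The means were 90.9 ± 4.36 CPM in P1-ww714, 133 ± 5.24 CPM in the heterozygote and 156 ± 27.3 CPM in B73 (SD, n = 3 each), so that P1-ww714 held 58.0% and the heterozygote 85.1% of the B73 mean.

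**Figure D1:**
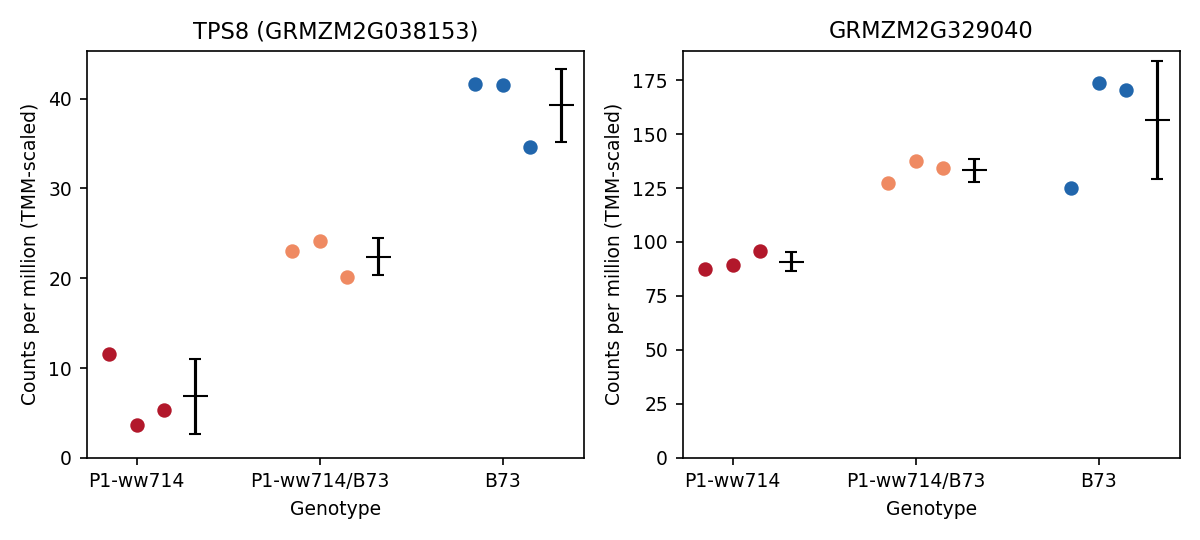
Level of TPS8 (left) and GRMZM2G329040 (right) in TMM-scaled CPM in the 9 libraries, by genotype; points are libraries and the black mark is the mean with its SD (n = 3). TPS8 lies at 3.67 to 11.6 CPM in P1-ww714, 20.1 to 24.1 CPM in P1-ww714/B73 and 34.6 to 41.7 CPM in B73, while GRMZM2G329040 overlaps between P1-ww714/B73 and B73.

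In P1-ww714 against B73, the comparison by which both genes were chosen, the log2 fold was -2.49 for TPS8 (SE 0.311, 95% interval -3.18 to -1.81) and -0.78 for GRMZM2G329040 (SE 0.129, 95% interval -1.07 to -0.50). The adjusted p was 0.00237 for TPS8 and 0.0153 for GRMZM2G329040 by edgeR's quasi-likelihood test, adjusted by Benjamini-Hochberg over 22544 tested genes. In this comparison 0.776% of tested genes were called and 0.124% were called lower, and since the comparison chose the pair, nothing is read from both being called. The log2 fold of TPS8 was -3.11 without P1-ww714 replicate 1. The call of GRMZM2G329040 was lost without P1-ww714 replicate 1 (edgeR adjusted p = 0.0907), P1-ww714 replicate 2 (0.106), P1-ww714 replicate 3 (0.0555), B73 replicate 2 (0.0919) or B73 replicate 3 (0.0844).

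Over the chromosome 1 segment, 81 of the 131 tested genes were called higher in P1-ww714 than in B73 and 3 were called lower, the other being sus2 (GRMZM2G318780), a sucrose synthase gene. Over all tested genes the shares were 0.652% higher and 0.124% lower. The segment was found from folds in this comparison, so its counts and its median are a description. The median log2 fold of the segment was 0.94, and TPS8 was its lowest gene and GRMZM2G329040 ranked 4 from the bottom. sus2 averaged 3.83 ± 0.759 CPM in P1-ww714, 6.05 ± 0.916 CPM in the heterozygote and 10.6 ± 0.909 CPM in B73 (SD, n = 3 each), and its libraries followed the same order without overlap as those of TPS8. TPS8 and sus2 were the 2 of 131 segment genes, 1.53%, with this order in all 9 libraries, against 51 of 22544 tested genes (0.226%). This order includes P1-ww714 below B73, the direction in which TPS8 was chosen and sus2 was called, so the shares are a description. In P1-ww714 against B73, 10 of the 131 genes lay below 0. Of those not called, the 2 with the lowest adjusted p were GRMZM2G128644 and GRMZM2G073755. GRMZM2G128644 had a log2 fold of -1.59 and an edgeR adjusted p of 0.295, at mean levels of 0.575 CPM in P1-ww714 and 1.75 CPM in B73. GRMZM2G073755 had -0.62 and 0.167 at 15.2 and 23.5 CPM. The gene next to GRMZM2G329040 in fold was GRMZM5G822100, at -0.76 (edgeR adjusted p = 0.875).

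**Figure D2:**
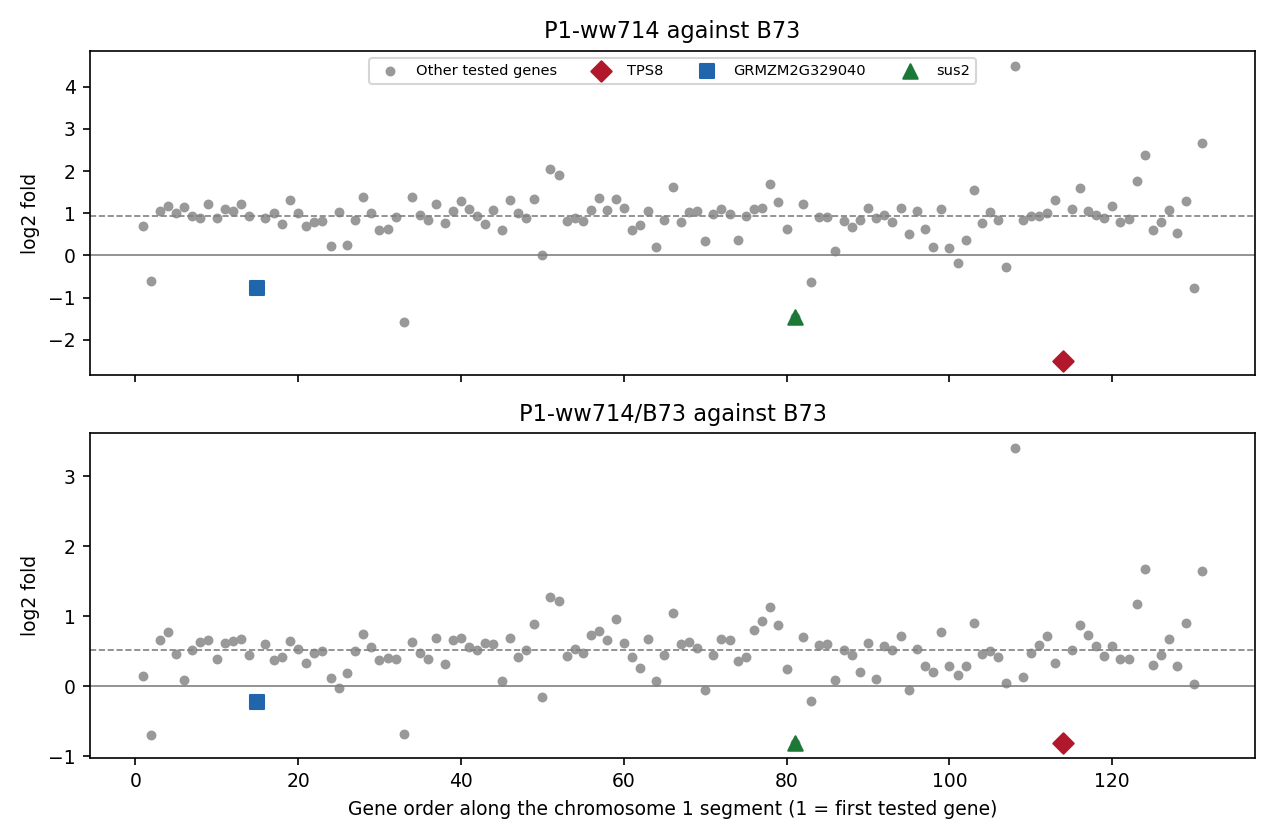
Log2 fold of the 131 tested genes of the chromosome 1 segment in gene order, for P1-ww714 against B73 (top) and P1-ww714/B73 against B73 (bottom); each point is a gene, the solid line marks 0 and the dashed line the median over the segment (0.94 and 0.51). TPS8, GRMZM2G329040 and sus2 lie below 0 in both panels, among genes that are mostly above 0.

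The heterozygote was not used to choose the pair, although its comparison with B73 shares the B73 libraries. TPS8 had a log2 fold of -0.81 in P1-ww714/B73 against B73 (SE 0.288, 95% interval -1.44 to -0.17), a 0.572-fold level. Its unadjusted p was 0.0175 and its adjusted p was 1 in the edgeR test, so it did not pass. The interval lay below the log2 value of 0.585 that 3 doses against 2 would give. GRMZM2G329040 had a log2 fold of -0.23 (SE 0.128, 95% interval -0.52 to 0.05, edgeR adjusted p = 1), a 0.851-fold level. Its interval held 0 and also lay below 0.585. Both intervals use B73 libraries by which the pair was chosen, so their place against 0.585 is a description. The log2 fold of GRMZM2G329040 was -0.37 without B73 replicate 1 and -0.15 without B73 replicate 2, and it did not pass in either case. For comparison, 25 of 22544 tested genes (0.111%) were called in P1-ww714/B73 against B73, all of them higher, and 585 had an unadjusted p under 0.05. DESeq2 called 72. In the segment the median log2 fold of this comparison was 0.51, TPS8 was the second lowest gene and GRMZM2G329040 the fifth lowest, and 10 of the 131 genes (7.63%) lay below 0.

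P1-ww714 against P1-ww714/B73 sets the larger dose against the smaller and shares the P1-ww714 libraries with the comparison that chose the pair. TPS8 had a log2 fold of -1.69 (SE 0.311, 95% interval -2.37 to -1.0, unadjusted p = 0.000226, edgeR adjusted p = 0.379) and ranked 12 of 22544 genes by p. GRMZM2G329040 had a log2 fold of -0.55 (SE 0.129, 95% interval -0.84 to -0.27, unadjusted p = 0.00135, edgeR adjusted p = 0.749) and ranked 39. The edgeR test called no gene here (0%), although an unadjusted p under 0.05 was found for 680, and DESeq2 called 25. TPS8 was among those called by DESeq2, with an adjusted p of 0.000398, and it passed the edgeR test without P1-ww714 replicate 1 at a log2 fold of -2.30 (adjusted p = 0.00721). The median log2 fold of the segment was 0.40.

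The place of the heterozygote between the parents was tested on the log2 scale. It is free of the choice of the pair only where both parents spread alike, which neither gene showed. The coefficient of variation in P1-ww714 and B73 was 61.0% and 10.3% for TPS8, and 4.80% and 17.4% for GRMZM2G329040. TPS8 lay 0.44 above the middle of P1-ww714 and B73 (SE 0.253, 95% interval -0.12 to 0.998, unadjusted p = 0.111, edgeR adjusted p = 1). Without P1-ww714 replicate 1 the value of TPS8 was 0.75 (edgeR adjusted p = 1). GRMZM2G329040 lay 0.16 above the middle (SE 0.110, 95% interval -0.08 to 0.40, unadjusted p = 0.177, edgeR adjusted p = 1), and 0.09 above it without B73 replicate 1. Neither departed from the middle past the threshold, and no gene did (0% of 22544; 235 at an unadjusted p under 0.05, and 2 by DESeq2). On the linear scale the middle of the parents was 23.1 CPM for TPS8, inside the range of its 3 heterozygote libraries of 20.1 to 24.1 CPM. For GRMZM2G329040 it was 124 CPM, below all 3 heterozygote libraries, whose lowest was 127 CPM. Measured from B73 towards P1-ww714, the heterozygote mean stood at 52.0% of the way for TPS8 and at 35.6% for GRMZM2G329040.

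The spread between libraries differed between the pair. The coefficient of variation of TPS8 was 61.0% in P1-ww714, 9.18% in the heterozygote and 10.3% in B73. Its pooled SD within genotypes was 0.491 on the log2 scale, larger than in 95.6% of the 500 genes nearest to it in level, whose median was 0.181. The coefficient of variation of GRMZM2G329040 was 4.80% in P1-ww714, 3.93% in the heterozygote and 17.4% in B73, and its pooled SD of 0.162 was larger than in 55.2% of the 500 genes nearest in level. Over the 9 libraries the log2 CPM of the pair correlated at r = 0.847, and after the genotype means were removed at r = -0.176. These are descriptions over libraries that share the genotype differences.

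The genes beside TPS8 mostly had higher levels in P1-ww714 than in B73. The 10 nearest tested genes on each side of it had a median log2 fold of 0.97 in P1-ww714 against B73, a 1.96-fold level, with 19 of 20 above 0 and 15 called higher against a share of 0.652% over all tested genes. The segment was found from folds in this comparison, so this count is a description. In P1-ww714/B73 against B73 the median was 0.52 (1.43-fold), all 20 lay above 0 and 3 were called higher, against 0.111% over all tested genes. The gene before TPS8, GRMZM2G402584, averaged 10.1 CPM in P1-ww714, 5.01 CPM in the heterozygote and 4.08 CPM in B73, and the gene after it, GRMZM2G102497, averaged 24.9, 16.8 and 11.7 CPM in the same genotypes. GRMZM2G009232 was the neighbour below 0 in P1-ww714, with 44.1 CPM there, 55.5 CPM in the heterozygote and 53.9 CPM in B73 (edgeR adjusted p = 0.951). GRMZM2G308666, 6 tested genes before TPS8, was the neighbour with the largest rise, at 29.5, 27.4 and 42.6 CPM in P1-ww714, 17.0, 16.0 and 13.4 CPM in the heterozygote and 1.56, 2.18 and 0.504 CPM in B73. Its B73 libraries held 20, 26 and 5 counts, and the fold was 22.7 in P1-ww714 and 10.6 in the heterozygote over B73 (edgeR adjusted p = 0.000223 and 0.00671).

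Set against these neighbours within each library, TPS8 differed more between genotypes than its CPM did. Its level was 0.921%, 0.270% and 0.384% of the summed CPM of its 20 neighbours in P1-ww714, 2.54%, 2.21% and 1.91% in the heterozygote and 6.55%, 5.74% and 4.70% in B73. GRMZM2G329040 stood at 6.11%, 6.35% and 6.66% of its own 20 neighbours in P1-ww714, 12%, 13% and 11.9% in the heterozygote and 16.9%, 22.2% and 21.7% in B73. Its neighbours include GRMZM2G008490 and GRMZM2G703565, other identifiers of its own RefSeq gene. For both genes the 3 genotypes did not overlap on this measure, which does not rest on the scaling between libraries. The summed neighbours themselves separated the genotypes, with 1260 to 1386 CPM around TPS8 in P1-ww714, 906 to 1093 CPM in the heterozygote and 636 to 736 CPM in B73. A gene at the same level in all genotypes would thus also have a lower share in P1-ww714, and the lack of overlap is read as a description only.

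**Figure D3:**
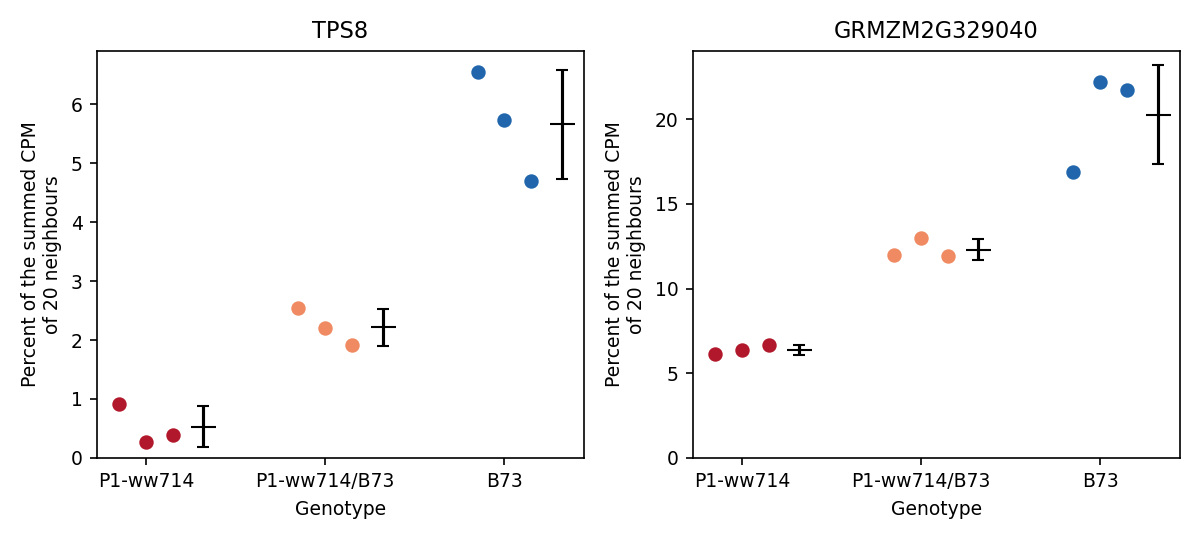
Level of TPS8 (left) and GRMZM2G329040 (right) as a percent of the summed CPM of the 10 nearest tested genes on each side, in each library; the black mark is the mean with its SD (n = 3). In both panels all P1-ww714 libraries lie below all P1-ww714/B73 libraries, which lie below all B73 libraries. The summed neighbours also separated the genotypes, so this order is a description only. The neighbours of GRMZM2G329040 include GRMZM2G008490 and GRMZM2G703565, other identifiers of its own RefSeq gene.

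The 20 tested identifiers around GRMZM2G329040 had a median log2 fold of 0.97 in P1-ww714 against B73 (1.96-fold). All 20 lay above 0 and 15 were called higher. GRMZM2G008490 and GRMZM2G703565, the nearest on each side, are among these 20 and are other identifiers of its own RefSeq gene. GRMZM2G008490 is also among the 15 called. Over all tested genes 0.652% were called higher, and as around TPS8 the count is a description. In P1-ww714/B73 against B73 the median was 0.49 (1.41-fold), 19 lay above 0 and 1 was called higher, against 0.111% over all tested genes. Among the nearest were PHYB (GRMZM2G124532), which encodes a phytochrome, a red light receptor, with 137 CPM in P1-ww714, 103 CPM in the heterozygote and 66.5 CPM in B73, and GRMZM5G851485 with 13.6, 8.74 and 6.69 CPM in the same genotypes. The members of the pair lay far apart in the segment, with 98 tested genes between them that have a position in the reference table.

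GRMZM2G329040 is not the only identifier of its gene. The reference assigns 3 identifiers of the count table, GRMZM2G329040, GRMZM2G008490 and GRMZM2G703565, to 1 RefSeq gene, whereas 523 of 17697 matched RefSeq genes have 2 or more identifiers and 32 have 3 or more. The sources used here do not say which part of the gene each identifier covers. The log2 folds of the other two had the opposite sign. GRMZM2G008490 had 831, 590 and 715 counts in P1-ww714, 338, 603 and 364 in the heterozygote and 354, 287 and 262 in B73. Its mean level was 50.1 ± 3.04 CPM in P1-ww714, 35.5 ± 4.39 CPM in the heterozygote and 26.0 ± 1.76 CPM in B73 (SD, n = 3 each), with no overlap between genotypes. The share of all tested genes with this order was not computed. It rose in P1-ww714 against B73, with a log2 fold of 0.94 (SE 0.115, edgeR adjusted p = 0.00205), and its log2 fold in P1-ww714/B73 against B73 was 0.45 (SE 0.116, edgeR adjusted p = 0.574).

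GRMZM2G703565, the third identifier, had 113, 110 and 116 counts in P1-ww714, 87, 87 and 62 in the heterozygote and 42, 66 and 42 in B73. Its mean level was 8.07 ± 1.17 CPM in P1-ww714, 6.60 ± 1.16 CPM in the heterozygote and 4.35 ± 1.14 CPM in B73 (SD, n = 3 each). The log2 fold was 0.89 in P1-ww714 against B73 (SE 0.228, edgeR adjusted p = 0.184), which did not pass. The log2 folds of GRMZM2G008490 and GRMZM2G703565 lie near the segment's median of 0.94.

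The share of the gene's counts that fell on GRMZM2G329040 was 59.2%, 59.9% and 63.7% in P1-ww714, 76.9%, 75.8% and 75.2% in the heterozygote and 80.2%, 85.4% and 84.8% in B73. The genotypes did not overlap. The log2 ratio of its counts to those of the other two identifiers averaged 1.66 ± 0.0656 in the heterozygote and 2.35 ± 0.288 in B73 (SD, n = 3 each), a difference of -0.69 with an exact two-sided permutation p of 0.1. It averaged 0.64 ± 0.148 in P1-ww714 and 1.66 ± 0.0656 in the heterozygote, a difference of -1.02 with an exact two-sided permutation p of 0.1. Adjusted by Benjamini-Hochberg over these 2 comparisons both permutation p-values stayed at 0.1, the smallest p that 3 libraries against 3 can give. Both comparisons share libraries with the comparison that chose GRMZM2G329040. The shares, the ratios and their lack of overlap are therefore read as a description only.

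Summed over the 3 identifiers, the gene had 148, 149 and 150.3 CPM in P1-ww714, 166, 182 and 178 CPM in the heterozygote and 156, 204 and 201 CPM in B73. In a fit made after these values were seen, with the sum as 1 gene, the log2 fold was -0.33 in P1-ww714 against B73 (SE 0.116, 95% interval -0.58 to -0.07, unadjusted p = 0.0175, edgeR adjusted p = 0.494) and -0.09 in P1-ww714/B73 against B73 (SE 0.116, 95% interval -0.35 to 0.16, edgeR adjusted p = 1). The call of GRMZM2G329040 in P1-ww714 against B73 thus did not hold for the sum. GRMZM2G329040, which was chosen for being lower, holds most of the summed counts, so the sum is no independent measure in this comparison. Among the 270 RefSeq genes with 2 or more tested identifiers, the median difference between the highest and the lowest log2 fold in P1-ww714 against B73 was 0.149. It was 1.73 for the gene of GRMZM2G329040, the second largest, and this was the only 1 of the 270 with identifiers called in both directions. Since GRMZM2G329040 was chosen in this comparison, the rank is a description. How reads were divided between neighbouring or overlapping identifiers is not stated in the sources, and its part in the result was not tested.

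**Figure D4:**
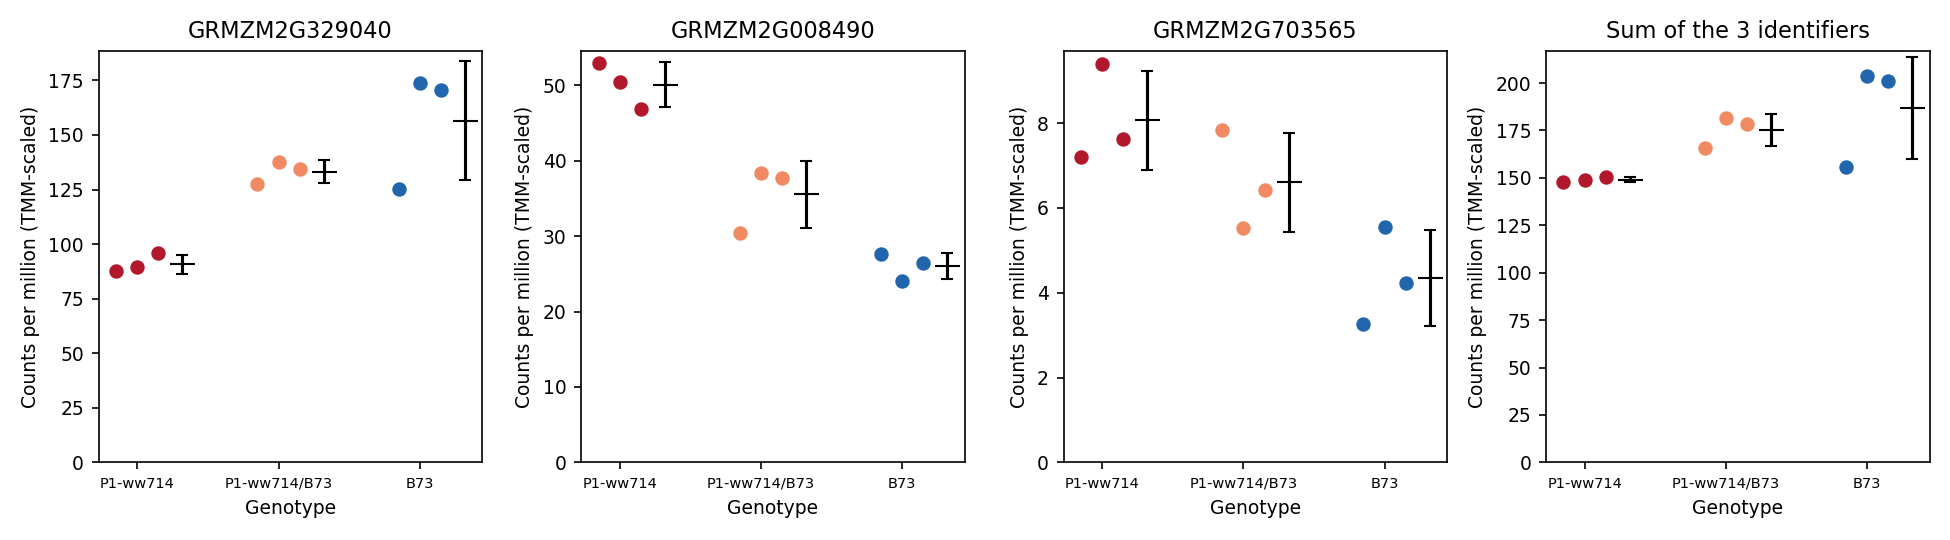
Level in TMM-scaled CPM of the 3 identifiers that belong to 1 RefSeq gene and of their sum, in the 9 libraries by genotype; the black mark is the mean with its SD (n = 3). GRMZM2G329040 is lowest in P1-ww714, GRMZM2G008490 and GRMZM2G703565 are highest there on average, and the sum lies between 148 and 150.3 CPM in P1-ww714 and between 156 and 204 CPM in B73.

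Other genes of terpene synthesis were read beside TPS8. By symbol, 21 identifiers matched terpene synthase names, of which 17 were tested, and TPS8 was the only 1 past the threshold in any comparison. In P1-ww714 against B73, 2 of the 17 lay above 0 and 15 below, TPS8 among them, with a median log2 fold of -0.44 against -0.002 over all tested genes. Whether another gene also holds the symbol TPS8 was left out of the next count. In 12 of the 21 the TPS number is also held by another gene of the reference table, so these can include trehalose phosphate synthases. Of these, the nearest to the threshold was TPS4 (GRMZM2G527891), picked out after its values were seen, with 69.7 CPM in P1-ww714, 103 CPM in the heterozygote and 124 CPM in B73 and a log2 fold of -0.83 in P1-ww714 against B73 (edgeR adjusted p = 0.0609). Of the 8 others beside TPS8, 5 were tested. In P1-ww714 against B73, 1 of these 5 lay above 0 and 4 below, with a median log2 fold of -0.21, and none passed the test. In P1-ww714/B73 against B73 their median was -0.08.

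The best expressed of these was eks1 (GRMZM2G049538), an ent-kaurene synthase gene of the gibberellin pathway, with 318, 240.2 and 125 CPM in P1-ww714, 462, 203 and 153 CPM in the heterozygote and 335, 276 and 179 CPM in B73. Its libraries overlapped between all genotypes, and within each genotype the level fell from replicate 1 to replicate 3. an1 (GRMZM2G081554), an ent-copalyl diphosphate synthase gene of the same pathway, averaged 13.3 ± 0.397 CPM in P1-ww714, 14.2 ± 3.01 CPM in the heterozygote and 17.0 ± 4.37 CPM in B73 (SD, n = 3 each). tps10 (GRMZM2G179092), a sesquiterpene synthase gene known for volatiles released after herbivory, averaged 4.54 ± 1.08 CPM in P1-ww714, 2.43 ± 1.49 CPM in the heterozygote and 2.28 ± 1.30 CPM in B73, with a log2 fold of 0.97 in P1-ww714 against B73 (edgeR adjusted p = 0.749). tps26 (GRMZM2G030583) averaged 1.41, 1.62 and 2.18 CPM and CPPS2 (GRMZM2G044481), an ent-copalyl diphosphate synthase gene also named an2, 1.58, 1.48 and 1.56 CPM in P1-ww714, the heterozygote and B73. EDS, KSL4 and tps23 were too low to be tested, each below 1 CPM on average in every genotype.

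Genes that supply prenyl diphosphates, the substrates of terpene synthases, gave 10 matched and tested identifiers. In P1-ww714 against B73, 3 lay above 0 and 7 below, with a median log2 fold of -0.08, and none passed the test in any comparison. fps (GRMZM2G168681), a farnesyl diphosphate synthase gene, whose product is the substrate of sesquiterpene synthases, averaged 37.4 ± 4.78 CPM in P1-ww714, 31.0 ± 11.2 CPM in the heterozygote and 42.3 ± 4.62 CPM in B73 (SD, n = 3 each). Hds1 (GRMZM2G137409), of the plastid pathway to prenyl diphosphates, was the best expressed, with means of 492 CPM in P1-ww714, 553 CPM in the heterozygote and 514 CPM in B73. dxs2 (GRMZM2G493395), of the first step of that pathway, had the log2 fold farthest below 0 of the 10, -0.73 in P1-ww714 against B73 (edgeR adjusted p = 0.970). Its levels were 26.2, 16.5 and 9.32 CPM in P1-ww714 and 49.0, 28.1 and 8.47 CPM in B73. The log2 fold farthest above 0 was that of dxs1 (GRMZM2G137151), 0.35 in the same comparison (edgeR adjusted p = 0.865).

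Cytochrome P450 genes of terpenoid pathways had 4 matched identifiers, 3 of them tested and none past the threshold. CYP92C6 (GRMZM2G139467), of homoterpene formation, averaged 44.4 ± 5.91 CPM in P1-ww714, 43.2 ± 18.6 CPM in the heterozygote and 38.9 ± 16.7 CPM in B73 (SD, n = 3 each). Of trehalose genes with an unambiguous symbol 1 identifier matched, ra3, and it was too low to be tested.

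The genes whose log2 CPM followed TPS8 most closely over the 9 libraries were AC197387.3_FG004 (r = 0.974), GRMZM2G463032 (r = 0.973) and GRMZM5G881180 (r = 0.960). AC197387.3_FG004, which has no position in the reference table, had 7, 0 and 0 counts in P1-ww714, 50, 63 and 28 in the heterozygote and 60, 102 and 72 in B73. GRMZM5G881180 had 2, 0 and 0 counts in P1-ww714, 11, 14 and 17 in the heterozygote and 37, 39 and 26 in B73. In both, P1-ww714 replicate 1 was the library of that genotype with counts, and it was also the P1-ww714 library in which TPS8 was highest. GRMZM2G463032, which lies on chromosome 3, varied little, with means of 65.9 CPM in P1-ww714, 71.1 CPM in the heterozygote and 72.3 CPM in B73. The lowest correlations with TPS8 were those of GRMZM2G438871 (r = -0.982), GRMZM2G115948 (r = -0.962) and GRMZM2G093776 (r = -0.947).

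GRMZM2G329040 was followed most closely by GRMZM2G028492 (r = 0.978), GRMZM5G878582 (r = 0.970) and GRMZM2G052479 (r = 0.966). GRMZM2G052479, which lies on chromosome 1 outside the segment, averaged 61.0 CPM in P1-ww714, 116 CPM in the heterozygote and 162 CPM in B73, and it fell in P1-ww714 against B73 with a log2 fold of -1.41 (edgeR adjusted p = 0.00115). The lowest correlations were those of GRMZM5G851485 (r = -0.954), 2 tested genes after it in the segment, GRMZM2G121871 (r = -0.95) and GRMZM5G861269 (r = -0.945). These correlations over 9 libraries rank 22544 genes and carry the genotype differences that chose the pair, so they are given as descriptions.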

How the data were processed

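Total RNA of maize seedlings was sequenced in 9 libraries. The authors deposited 1 table of raw counts per gene, 1 column per library, made with TopHat and HTSeq per the submitters' processing notes. The sources used here do not give the genome build, annotation, strand setting or treatment of shared reads, so no coordinates are printed. All 9 columns matched a labelled sample by name. Names, gene order and shared RefSeq genes came from a table of assembly Zm-B73-REFERENCE-NAM-5.0, which matched 18775 of 39656 identifiers (47.3%). Tested genes without a position in it entered neither the segment nor the neighbours. No sequences were used here.

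Counts were analysed with edgeR 4.0.16 in R 4.3.3. filterByExpr (minimum count 10) kept 22544 genes, which were scaled by TMM and tested by the quasi-likelihood F test over all 9 libraries together, with Benjamini-Hochberg adjustment over all tested genes at 0.05. Each SE is the fitted log2 fold over the root of F, and the 95% intervals follow from it. Log2 CPM for correlations used a prior count of 2. Correlations, neighbours and lists had no test. The segment was the run of chromosome 1 genes that maximised the summed log2 fold less 0.5 at even positions. Between replicates of a genotype, chi-square per gene was 6.35 or more for each pair, so no library was counted as a repeat of another. The procedure was tested on simulated counts.

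The named genes were the pair, neighbours, the genes with the highest and lowest correlations, sus2 and genes of 4 lists matched by symbol. Not all of the best expressed genes of these lists were named, and fps and dxs2 were named although they were not among them. From the prenyl diphosphate list, 5 symbols of HMG-box chromatin proteins were left out. GRMZM2G128644, GRMZM2G073755, GRMZM2G308666, dxs1, dxs2 and the genes that share a RefSeq gene with GRMZM2G329040 were picked out after their values were seen. The pair, lists and rules were chosen with earlier results of these data known. Alternatives were RLE factors, TMM without chromosome 1 and unplaced genes, a replicate block, DESeq2 1.42.0 and no filter on low counts. Further ones were fits of only the groups compared, leaving out each library and the summed identifiers. Unplaced genes are those without a chromosome in the reference table.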

Additional observations from a re-analysis of the deposited data

How the results depend on the processing

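TPS8 and GRMZM2G329040 kept the direction of their log2 folds in all 4 comparisons under every alternative run. In P1-ww714 against B73, TPS8 passed under all 15, with -3.11 to -2.22 when single libraries were left out. GRMZM2G329040 ran from -0.93 to -0.70 without single libraries, with edgeR adjusted p from 0.00304 to 0.106. It passed with RLE factors, TMM without chromosome 1 and unplaced genes, DESeq2, no filter, the block and only the groups compared. Its call ended at -0.33 for the sum of the 3 identifiers, a fit added after the data were seen, in which identifiers of opposite sign are added. In P1-ww714 against P1-ww714/B73, TPS8 passed with DESeq2 (-1.70), and ran from -2.30 to -1.41 without single libraries. DESeq2 called 311 genes in P1-ww714 against B73, 72 in P1-ww714/B73 against B73, 25 in P1-ww714 against P1-ww714/B73 and 2 against the mean of the parents, where edgeR called 175, 25, 0 and 0. Without single libraries the edgeR calls ran from 6 to 20 in P1-ww714/B73 against B73, from 0 to 4 in P1-ww714 against P1-ww714/B73, and there were 0 in P1-ww714/B73 against B73 when only both groups entered the fit. The causes were not tested. With the replicate number as a block, the log2 folds in P1-ww714 against B73 were -2.56 for TPS8 and -0.77 for GRMZM2G329040, calls numbered 243, 18, 0 and 0 in the order above, and no call of the pair changed. Same-numbered libraries correlated from -0.123 to 0.498 in their deviations and had the highest correlation at their own number in 7 of 18 cases. The main fit did not pair the libraries by number. This measure over all genes cannot exclude pairing in single genes. eks1 and dxs2 fell from replicate 1 to replicate 3 in each genotype, whereas an1 did not. Genes below the filter on low counts were not tested, and 3 libraries per genotype limit the intervals.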
